A study of Homo sapiens with 4 samples.

Results

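The genes described are 10 genes of the NRF2 antioxidant pathway and of iron storage, chosen by name out of 27940 gene symbols: the regulators NFE2L2 and KEAP1, the enzymes HMOX1, NQO1, GCLM, GCLC, TXNRD1 and SRXN1, and the ferritin chains FTH1 and FTL. Each was a single row of the deposited gene tables, each row had the status OK in all 4 libraries, and all 10 passed the filter on low values. The libraries were RNA-seq of U87, an established human glioma cell line grown in medium with serum. The control group, shNC (2 libraries), was infected with lentivirus made from the empty FUGW-H1 vector, although H1-RFP (WT) is the control's name in the design text of the series, so which vector it was cannot be settled here. The shPTPRN3 group (2 libraries) was infected with lentivirus carrying 1 short hairpin RNA against PTPRN, a phosphatase-family protein of secretory vesicle membranes. No second hairpin and no uninfected cells were analysed here. The study's title concerns cell growth, and no label ties the replicates to separate cultures. All p-values therefore reflect only how far these 4 libraries scatter, part of which may be technical.

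NFE2L2 encodes NRF2, a transcription factor that is made continuously and destroyed as fast while KEAP1, an adaptor of a ubiquitin ligase, holds it. Oxidants and electrophiles modify KEAP1, NRF2 accumulates, pairs with a small MAF protein and switches on genes whose control regions hold an antioxidant response element. Because this switch acts on the protein, the pathway is commonly read from the mRNA of its targets rather than from that of NFE2L2. Ferritin, built of heavy chains (FTH1) and light chains (FTL), stores iron in a harmless form. Its mRNAs carry an iron-responsive element, a short stem and loop near the 5′ end through which iron regulatory proteins block translation when iron is scarce.

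The hairpin's target is shown because it defines the treatment. Capitals mark bases 14 to 20, the stretch that pairs with the seed of the guide strand if that strand begins opposite the last base.
shPTPRN3 target: ggaagtctgtattCAGGATGg
In GENCODE 29 transcripts the whole target was found in PTPRN and in none of the 10 genes. The seed-matching stretch was found in the 3′ UTR of 1 of them, KEAP1, and in 15.4% of the 10439 tested genes with a 3′ UTR to search.

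Promoter sequences from RefSeq (GRCh38.p14), 250 bases before to 50 after each start, were listed for 8 of the 10 genes, HMOX1 and FTH1 being the ones without an entry. The core of the antioxidant response element, TGACNNNGC, was searched on both strands, and the matches are shown in capitals because several of these genes varied together among the libraries. The element is written on the strand where it reads 5′ to 3′.
GCLM, chr1:93909446-93909474, plus strand: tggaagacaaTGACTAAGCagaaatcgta
TXNRD1, chr12:104215670-104215698, plus strand: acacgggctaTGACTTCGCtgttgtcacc
TXNRD1, chr12:104215761-104215789, minus strand: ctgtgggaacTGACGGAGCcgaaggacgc
TXNRD1, chr12:104286920-104286948, minus strand: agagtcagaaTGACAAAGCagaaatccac
KEAP1, chr19:10502807-10502835, minus strand: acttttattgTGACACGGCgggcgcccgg
KEAP1, chr19:10502784-10502812, plus strand: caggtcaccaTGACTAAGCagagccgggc
Of the 11 promoters listed for the 8 genes, 4 hold a match, as do 13.3% of 35116 promoters of this length and 14.6% of the 13124 that belong to tested genes. TXNRD1 has 2 listed starts, and the last match shown for it belongs to the downstream one. KEAP1 also has 2 listed starts, and both of its matches lie inside its deposited row, downstream of the row's 5′ end. Of the genes that varied together, GCLM and TXNRD1 had a match, GCLC and SRXN1 had none and HMOX1 was not listed. NFE2L2, NQO1 and FTL had no match either. Whether the element has a part in the shared variation was not tested. The windows are short, and distal elements lie outside them.

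The ferritin mRNAs are shown by the loop of their iron-responsive element, CAGTGN, in capitals, within 30 bases of the 5′ UTR (GENCODE 29, GRCh38).
FTH1, chr11:61967573-61967602, minus strand: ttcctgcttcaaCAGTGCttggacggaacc
FTL, chr19:48965335-48965364, plus strand: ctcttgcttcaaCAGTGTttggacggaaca
The stretches agree at 26 of 30 bases. The 6 loop letters alone are common: they occur in the first 100 bases of 3 of the 10 transcripts (FTH1, FTL and NQO1) and of 10.8% of 10470 coding transcripts of tested genes.

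Values are FPKM, fragments per kilobase of transcript normalised to sequencing depth, divided here by a scaling factor per library (0.943 to 1.05), and differences are on the scale of log2(scaled FPKM + 1), as shPTPRN3 minus shNC. The estimated depth per library was between 13.1 and 29.6 M fragments. PTPRN had 27.6 and 19.8 scaled FPKM in the shNC libraries and 4.96 and 3.62 in the shPTPRN3 libraries, which is 18.1% of the control level (log2 fold change -2.22, SE 0.34, limma, adjusted p = 0.0592). Of 11390 genes tested with limma, 48 (0.421%) were called at an adjusted p under 0.05, with 9 higher (0.079%) and 39 lower (0.342%), or 10 and 20 when the values were rescaled to TPM. Of the markers of cell type, GFAP was listed at 0 in all 4 libraries, S100B, SOX2, OLIG2 and PDGFRA stayed below 1 scaled FPKM and NES had 0.972 to 4.01, so the defining glial markers were absent or low. Of the mesenchymal markers, VIM had 1193 to 2098, CD44 84.6 to 97.7 and FN1 43.2 and 66.8 in the controls and 341 and 91.6 in shPTPRN3, while THY1 was at 0.029 or less. Of the markers of immune, endothelial and epithelial cells only CD68, a lysosomal protein, exceeded 1 scaled FPKM, and of the neuronal ones RBFOX3 was at 0.063 or less, SYT1 at 1.04 to 2.28 and SNAP25 at 5.95 to 28.5.

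Among the 10 genes, NQO1 stood lower in both shPTPRN3 libraries and NFE2L2 higher in both. GCLM, GCLC, TXNRD1, SRXN1 and HMOX1 were highest in shPTPRN3 replicate 2 while shPTPRN3 replicate 1 lay near or below the controls, and the ferritin chains varied as much within groups as between them. None of the 10 was called over all genes (limma, adjusted p from 0.220 to 0.984), and 1, NQO1, had an unadjusted p under 0.05, as did 13.4% of all genes tested (7.77% on the lower side, where NQO1 lay). The groups did not overlap for 2 of the 10, against 44.6% of all genes tested (21.5% higher and 23.1% lower in shPTPRN3). The median log2 fold change of the 10 was 0.15, beside -0.01 over all genes tested. It was -0.31 without shPTPRN3 replicate 2 and 0.64 without shPTPRN3 replicate 1, so its sign depended on a single library. On values simulated for the 11390 genes, a true log2 difference of 1 was called by limma in 0 of 67 genes, of 2 in 15 of 67 and of 3 in 52 of 66. The simulated scatter was independent between libraries, with nothing shared by same-numbered ones. Under that setting this fit would rarely call a difference of the size of NQO1's.

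**Figure D1:**
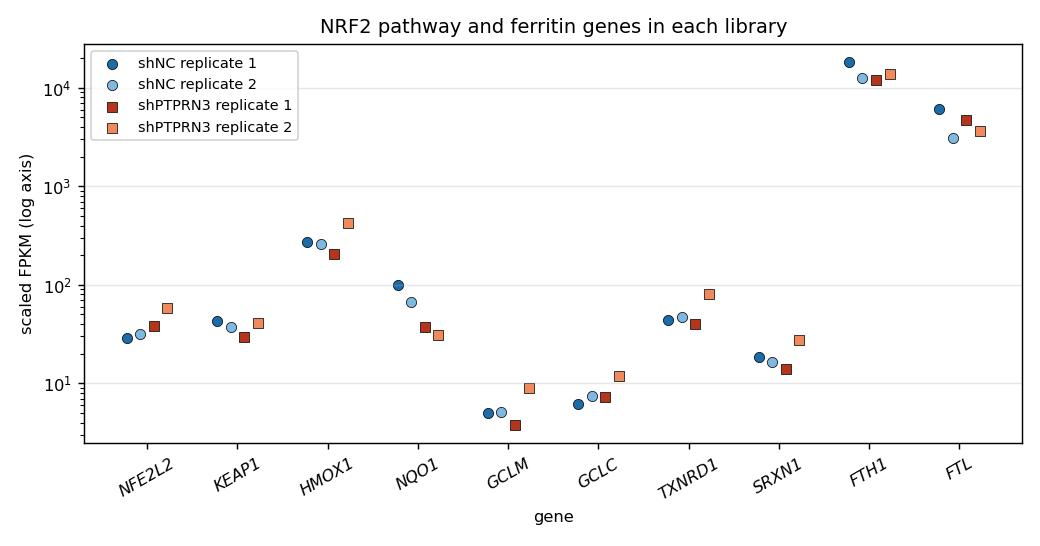
Scaled FPKM of each gene (vertical log axis) in each library (circles, shNC; squares, shPTPRN3; 1 point per library). FTH1 and FTL sit at 3059 scaled FPKM or more, GCLM and GCLC between 3.76 and 11.96, and NQO1 is the gene whose shPTPRN3 points both lie below both shNC points.

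The regulators differed from each other. NFE2L2 (chr2:177230303-177265131, minus strand) had 28.8 and 31.8 scaled FPKM in the shNC libraries and 37.8 and 58.4 in the shPTPRN3 libraries. Both knockdown libraries were above both controls, and the knockdown libraries differed from each other by 1.54 times. The group means were 30.3 ± 2.13 and 48.1 ± 14.5 (SD, n = 2), a log2 fold change of 0.62 with an SE of 0.36 (limma, adjusted p = 0.492). It was 0.31 without shPTPRN3 replicate 2. An exact two-sided permutation test of its values gave p = 0.333, the smallest that 2 against 2 libraries allow. KEAP1 (chr19:10486125-10503356, minus strand) had 42.9 and 37.2 scaled FPKM in the controls, against 29.3 and 40.7 in shPTPRN3. The KEAP1 groups overlapped, with a log2 fold change of -0.20 (SE 0.35; limma, adjusted p = 0.852) that was 0.027 without shPTPRN3 replicate 1. The ratio of NFE2L2 to KEAP1 FPKM was 0.671 and 0.854 in shNC and 1.29 and 1.43 in shPTPRN3, so NFE2L2 was the less abundant of the pair in both controls and the more abundant in both knockdown libraries.

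NQO1, a quinone reductase widely used as a readout of NRF2, showed the largest difference of the 10. It had 98.8 and 66.4 scaled FPKM in the controls, against 37.3 and 31.1 in shPTPRN3. Every knockdown value was below every control value, and the means were 82.6 ± 22.9 and 34.2 ± 4.38 (SD, n = 2), a 2.41-fold lower level in shPTPRN3. The log2 fold change of -1.23 (SE 0.37) missed the threshold over all genes (limma, adjusted p = 0.220, unadjusted p = 0.0135), and the exact permutation test gave p = 0.333, again the smallest possible. In size it ranked 739th of the 11390 tested genes. The deposited confidence intervals, which leave out the spread between cultures, ran from 61.4 to 107 FPKM over the control libraries and from 27.2 to 41.1 over the knockdown libraries. The gene (chr16:69709401-69726560, minus strand) overlaps no other row of the tables. Leaving out single libraries moved the value between -0.94 and -1.51. The direction was opposite to that of NFE2L2.

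**Figure D2:**
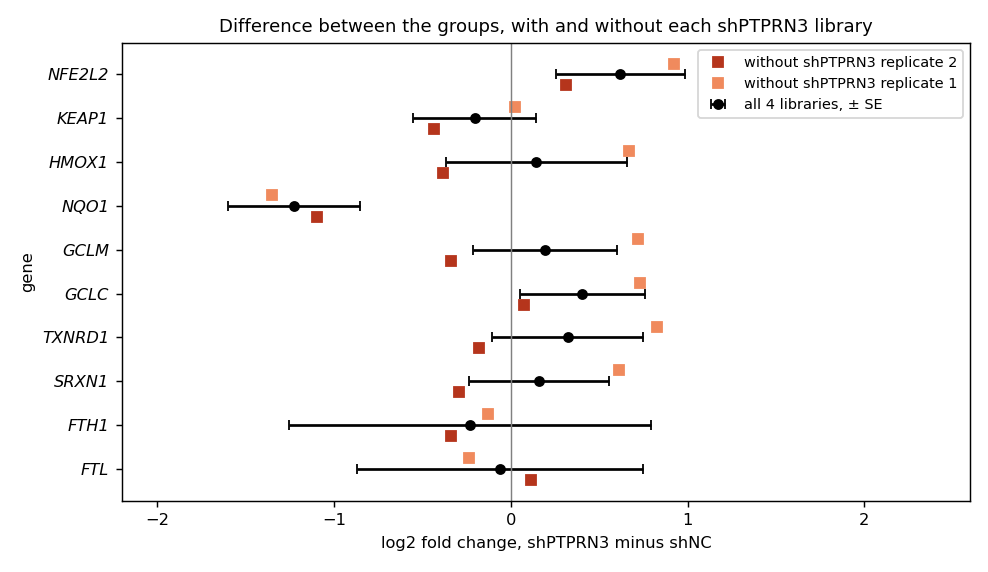
Log2 fold change of each gene, shPTPRN3 minus shNC, from all 4 libraries (black, with the SE) and with 1 shPTPRN3 library left out (squares). NQO1 is near -1.23 in each case, whereas KEAP1, HMOX1, GCLM, TXNRD1, SRXN1 and FTL change sign with the library left out.

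GCLM, GCLC, TXNRD1 and SRXN1 were highest in shPTPRN3 replicate 2, where NQO1 was lowest. GCLC and GCLM encode the catalytic and the modifier subunit of glutamate-cysteine ligase, the rate-limiting enzyme of glutathione synthesis. GCLM (chr1:93885200-93909598, minus strand) had 4.96 and 5.06 scaled FPKM in the controls, against 3.76 and 8.91 in shPTPRN3. The controls almost coincided, and the knockdown libraries lay on either side of them, 2.37 times apart. GCLC (chr6:53497341-53545101, minus strand) had 6.12 and 7.53 in shNC and 7.23 and 11.96 in shPTPRN3. Here shPTPRN3 replicate 1 lay between the controls and replicate 2 above them. The log2 fold changes were 0.19 (SE 0.41) for GCLM and 0.41 (SE 0.35) for GCLC (limma, adjusted p = 0.891 and 0.674), and -0.34 and 0.078 without shPTPRN3 replicate 2. GCLC was the more abundant subunit mRNA per length in every library, by 1.24 and 1.49 times in shNC and 1.92 and 1.34 times in shPTPRN3.

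TXNRD1 encodes the cytosolic thioredoxin reductase and SRXN1 encodes sulfiredoxin, which repairs overoxidised peroxiredoxins. TXNRD1 (chr12:104215779-104350307, plus strand) had 44.2 and 46.7 scaled FPKM in the controls, against 40.0 and 81.2 in shPTPRN3. SRXN1 (chr20:646624-653200, minus strand) had 18.7 and 16.5 in shNC and 14.1 and 27.4 in shPTPRN3. For both genes shPTPRN3 replicate 1 was the lowest library and replicate 2 the highest, at 2.03 and 1.94 times replicate 1. The log2 fold changes were 0.32 (SE 0.43) and 0.16 (SE 0.39), with adjusted p = 0.797 and 0.910 by limma. Without shPTPRN3 replicate 2 they were -0.18 and -0.29.

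HMOX1, haem oxygenase, which breaks haem down to iron, biliverdin and carbon monoxide, was the most abundant enzyme of the set per length. It had 273 and 262 scaled FPKM in the controls, against 205 and 426 in shPTPRN3. The controls differed 1.04-fold, and the knockdown libraries lay below and above them, 2.08 times apart. The log2 fold change was 0.14 (SE 0.51; limma, adjusted p = 0.941), and -0.38 without shPTPRN3 replicate 2. The deposited HMOX1 value (chr22:35381096-35394207, plus strand) lay above its own confidence interval in every library, at 1.13 to 1.15 times the middle of it. The offset was similar in the 4 libraries.

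In shPTPRN3 replicate 2, 6 of the 10 genes (NFE2L2, HMOX1, GCLM, GCLC, TXNRD1 and SRXN1) had their highest value of the 4 libraries, as did 28% of all genes tested. In 5 of these 6 that value was at least 1.5 times the next highest library, as in 5.53% of all genes tested, and SRXN1 followed at 1.47 times. The threshold was chosen after the values were seen, and the counts are a description of 1 library. Among 7267 genes with a mean of at least 5 scaled FPKM, the one whose 4 centred log2 values lay closest to those of HMOX1 was GCLM (Euclidean distance 0.0765), followed by BANP (0.0779) and GMPR2 (0.0888). SRXN1 ranked 6th, TXNRD1 18th, GCLC 192nd, KEAP1 488th and NFE2L2 625th, while FTH1 ranked 1874th, FTL 4795th and NQO1 6411th. This likeness rests on 4 libraries, which all these genes share. The estimated depth of shPTPRN3 replicate 2 was 14.1 M fragments, against 13.1 M for shNC replicate 2 and 29.6 M for shPTPRN3 replicate 1. Genes with transcripts under 1500 bases held 35.8% of the FPKM in shPTPRN3 replicate 2, 43.2% in replicate 1 and 51.3% and 38.8% in shNC. The part of depth, of transcript length or of culture conditions in the pattern was not tested.

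**Figure D3:**
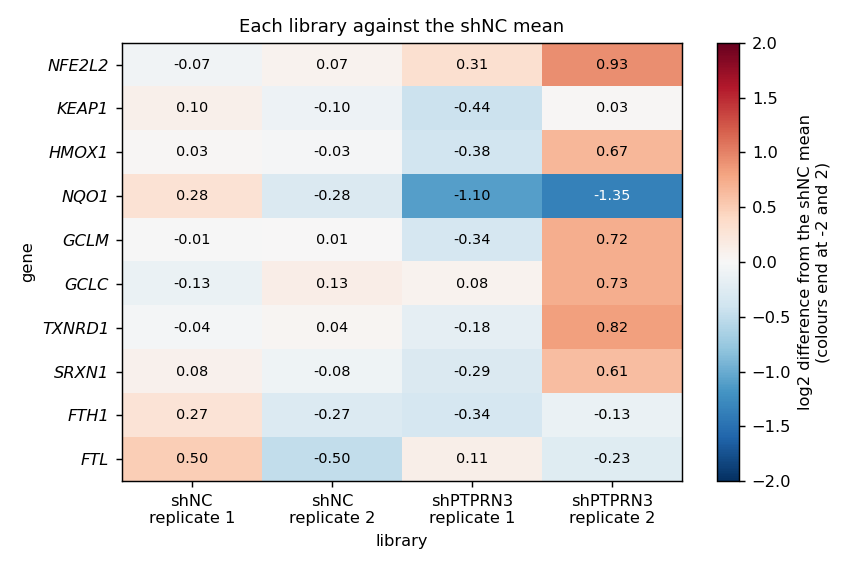
Log2 difference of each library from the mean of the shNC libraries, for the 10 genes (rows) in the 4 libraries (columns). HMOX1, GCLM, TXNRD1 and SRXN1 run from between -0.38 and -0.18 in shPTPRN3 replicate 1 to between 0.61 and 0.82 in replicate 2, and NQO1 is at -1.10 and -1.35.

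The ferritin chains dominated the set in level. FTH1 (chr11:61964285-61967634, minus strand) had the highest FPKM of all genes in each of the 4 libraries, with 18196 and 12470 scaled FPKM in the control libraries, and 11941 and 13792 in shPTPRN3. The highest library was shNC replicate 1, and the others lay close together. FTL (chr19:48965309-48966879, plus strand) had 6112 and 3059 in shNC and 4682 and 3674 in shPTPRN3, ranking between 5th and 7th in each library. The FTL controls differed 1.998-fold and enclosed both knockdown values. Together the chains made up 5.29% and 4.84% of all FPKM in shNC and 4.27% and 5.24% in shPTPRN3. FTH1 exceeded FTL by 2.98 and 4.08 times in shNC and by 2.55 and 3.75 times in shPTPRN3, a ratio that was lower in both libraries numbered 1.

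The log2 fold changes of FTH1 and FTL were -0.23 (SE 1.03) and -0.06 (SE 0.81), with adjusted p = 0.956 and 0.984 by limma. The sign of FTL was opposite on TPM (0.032) and with quantile normalization (0.053), and that of FTH1 without shNC replicate 1 (0.041). Both transcripts are short, at 1229 and 878 bases, and the share of FPKM in genes whose longest transcript is under 1500 bases was 51.3% and 38.8% in shNC and 43.2% and 35.8% in shPTPRN3. With trends of length and GC content removed, FTL stood at 0.11. The deposited FTL values lay at 1.301 to 1.321 times the middle of their own confidence intervals and those of FTH1 just below theirs, at 0.981 to 0.982. FTH1 overlaps BEST1, which was listed at 0 in every library. A processed copy, FTH1P3, was listed at 41.5 and 29.04 FPKM in shNC and 21.5 and 29.3 in shPTPRN3 as deposited, and fragments shared by such near-identical copies cannot be assigned with certainty.

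Other genes of the pathway were read from 5 lists: NRF2 partners, further NRF2 targets, antioxidant enzymes, iron and haem genes, and ferroptosis regulators, with 13, 29, 23, 20 and 11 tested members. GPX4, SLC7A11, NCOA4 and TFRC stand in 2 of the lists. No member of any list was called over all genes by limma, and at an unadjusted p under 0.05 the lists held 0, 1, 0, 3 and 0 members, all of them lower, beside 7.77% of all genes tested that were lower at this p and 13.4% in either direction, so no list is set apart by these counts. The genes were UGDH among the targets and SLC39A14, PCBP2 and the haem transporter family gene FLVCR2 (log2 fold change -0.88, named after its value was seen) among the iron and haem genes. The regulators and partners of NRF2 had a median log2 fold change of 0.35 over 13 genes, beside -0.01 over all genes tested. The mRNAs of the small MAF proteins, the partners NRF2 needs to bind DNA, were highest in shPTPRN3 replicate 2, as those of GCLM and GCLC were. MAFG had 17.0 and 17.8 scaled FPKM in the controls, against 22.0 and 45.0 in shPTPRN3 (log2 fold change 0.82, SE 0.41; limma, adjusted p = 0.437). MAFK had 11.8 and 9.66 in shNC and 11.7 and 30.7 in shPTPRN3 (0.78, SE 0.47), and MAFF 6.32 and 4.25 in shNC and 7.48 and 10.2 in shPTPRN3 (0.65, SE 0.34). In all, 9 of the 13 genes of this list were highest in shPTPRN3 replicate 2, beside 28% of all genes tested. EP300, an acetyltransferase coactivator, had 0.75 (SE 0.50).

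Further NRF2 targets, 29 of them tested, had a median of 0.08, and their values ran in both directions. UGDH, which makes UDP-glucuronate, had 9.60 and 13.8 scaled FPKM in the controls, against 3.59 and 3.26 in shPTPRN3, lower in both (log2 fold change -1.503, SE 0.32; limma, adjusted p = 0.108). The exporter gene ABCC2 (0.97), the biliverdin reductase BLVRB (0.90) and ABHD4 (0.85) had the next largest values among genes averaging at least 5 scaled FPKM, and none was called. Below that level, NQO2 was listed at 7.42 and 0 in the controls and at 0 in both shPTPRN3 libraries, and AKR1B10 had 0.88 (both named after their values were seen). BLVRB had 180 and 88.2 in shNC and 233 and 237 in shPTPRN3, where the knockdown libraries nearly coincided. Another biliverdin reductase of this list, BLVRA, went the other way, with 39.1 and 29.1 in shNC and 28.1 and 17.1 in shPTPRN3. Its log2 fold change was -0.60 (SE 0.38), and it is named after its value was seen. Of the 29, 15 were highest in shPTPRN3 replicate 2, and in 6 the value was at least 1.5 times the next library. The shares over all genes tested were 28% and 5.53%. SLC7A11, the cystine transporter that feeds glutathione synthesis, stood at 0.04. It lay near the filter on low values, at 0.917 and 1.03 scaled FPKM in the controls and 0.535 and 1.70 in shPTPRN3.

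Enzymes of glutathione, thioredoxin and peroxide handling had a median of 0.27 over 23 tested genes. Of the 23, 2 were highest in shPTPRN3 replicate 2, and none by 1.5 times, beside 28% and 5.53% of all genes tested. SOD2, the mitochondrial superoxide dismutase, had 7.54 and 325 scaled FPKM in the controls, against 134 and 252 in shPTPRN3, so its log2 fold change of 1.81 (SE 1.48) came with controls that lay further apart than the group means. Its locus overlaps WTAP and ACAT2, both listed at 0 in every library. PRDX1, a peroxiredoxin, had 581 and 291 in shNC and 286 and 252 in shPTPRN3 (-0.61, SE 0.52), and GLRX, glutaredoxin, had 88.2 and 53.9 in shNC and 97.6 and 116 in shPTPRN3 (0.62, SE 0.41). SOD3, the extracellular superoxide dismutase, had 0.62 (SE 0.50).

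Iron and haem handling genes had a median of -0.04 over 20 tested genes, with the largest differences on the lower side. SLC39A14, a transporter that takes up iron not bound to transferrin, had 31.97 and 51.5 scaled FPKM in the controls, against 10.5 and 10.4 in shPTPRN3. The knockdown values were nearly equal and both below the controls (log2 fold change -1.86, SE 0.36; limma, adjusted p = 0.0821). PCBP2, an RNA-binding protein that also delivers iron to ferritin, had 141 and 129 in shNC and 44.6 and 39.2 in shPTPRN3 (-1.67, SE 0.35; limma, adjusted p = 0.103). At the overlapping gene MAP3K12 the deposited FPKM were 0 and 0 in shNC and 9.95 and 9.19 in shPTPRN3, and the part of fragment assignment between these genes in the PCBP2 value was not tested. SLC11A2, an iron importer, had 12.2 and 18.5 in shNC and 24.9 and 25.2 in shPTPRN3 (0.70, SE 0.34), and the ferrireductase STEAP3 had -0.57 (SE 0.37).

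**Figure D4:**
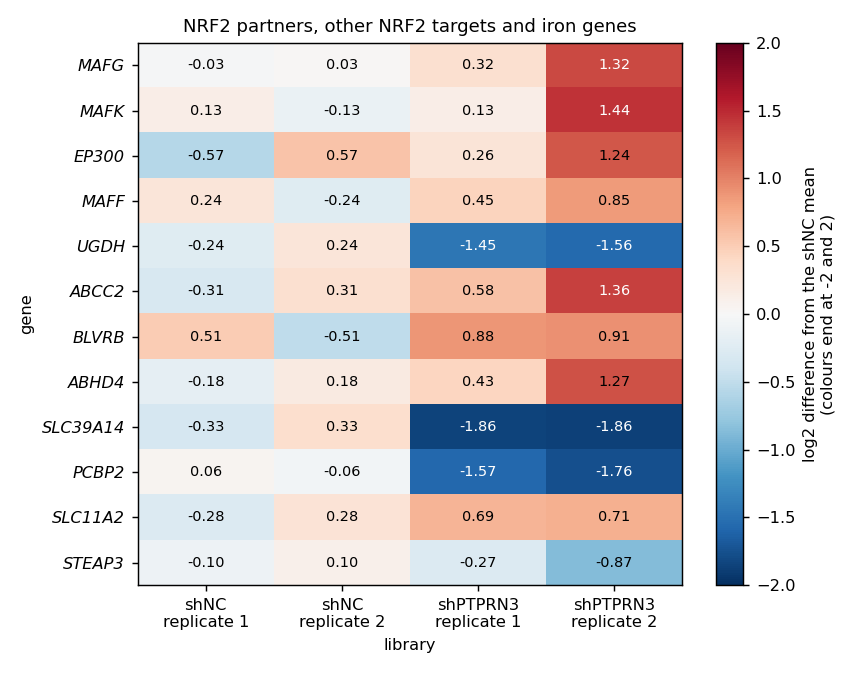
Log2 difference of each library from the mean of the shNC libraries for the named NRF2 partners (top 4 rows), other NRF2 targets (next 4) and iron genes (bottom 4). MAFG and MAFK stand at 1.32 and 1.44 in shPTPRN3 replicate 2 and at 0.32 and 0.13 in replicate 1, and UGDH, SLC39A14 and PCBP2 lie between -1.45 and -1.86 in both.

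Regulators of ferroptosis, a form of cell death driven by iron and lipid peroxides, had a median of 0.27 over 11 tested genes. ACSL4, which activates polyunsaturated fatty acids for use in membrane lipids, had 16.0 and 35.3 scaled FPKM in the controls, against 40.0 and 38.6 in shPTPRN3 (log2 fold change 0.70, SE 0.43). GPX4, the peroxidase that reduces lipid peroxides, had 553 and 253 in shNC and 608 and 463 in shPTPRN3 (0.50, SE 0.56). NCOA4, the receptor that sends ferritin to lysosomes, had 0.48 (SE 0.43), and TFRC, the transferrin receptor, 0.32 (SE 0.41). Of the 11 genes, the groups did not overlap for 3 (ACSL4 and LPCAT3 higher, DHODH lower), beside 44.6% of all genes tested. DHODH, a mitochondrial dehydrogenase at 3.57 and 1.97 scaled FPKM in the controls and 1.62 and 0.619 in shPTPRN3, had the largest difference of the list (-0.84, SE 0.38) and is named here after its value was seen, as is LPCAT3 (0.27).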

How the data were processed

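RNA of U87 cells was made into libraries with a stranded mRNA kit, as the labels' protocols say. The submitters' processing notes name FastQC 0.72 first, STAR 2.6.0b-1 and, for the gene values, Cufflinks 2.2.1.2, on hg38. Which annotation and strand setting the authors chose is not given in the sources used here. Each library has its own table of FPKM, with an interval and a status per gene as deposited by the authors. FPKM rest on the transcript length assumed for a gene, and fragments of overlapping genes or copies may be divided among them. The tables hold no counts, which ruled a count model out.

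Of 33646 rows, 651 lacked the status OK somewhere and were dropped. FPKM were then added up per symbol and divided by median-ratio factors computed on the 9988 genes that reach 1 FPKM in all libraries. PTPRN and every gene averaging at least 1 scaled FPKM entered limma 3.58.1 (R 4.3.3), with eBayes and a trend, two-sided, on log2(scaled FPKM + 1). P-values were adjusted by Benjamini-Hochberg over all 11390 genes, with 2 residual degrees of freedom and 4.94 from the prior. The procedure was tested on simulated data. Library depth was estimated by treating the interval of single-exon genes (GENCODE 29) as pure counting error. Python 3.11.15, pandas 2.3.3, numpy 2.4.6 and matplotlib 3.10.9 were used.

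The 10 genes and the 5 lists (108 genes) were chosen with earlier results of these data known. From each list its called genes were named or, with none, the 4 largest differences among genes averaging at least 5 scaled FPKM, besides FTH1P3 and the 3 genes closest to HMOX1. SLC7A11, FLVCR2, NQO2, AKR1B10, BLVRA, DHODH, LPCAT3 and the overlapping genes were named after their values were seen. Alternatives varied the scaling, pseudocount, filters, row status, genes listed at 0, eBayes settings, length and GC trends, the replicate block and the libraries included.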

Additional observations from a re-analysis of the deposited data

How the results depend on the processing

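With 2 libraries a group, the number of genes called over all genes depended strongly on the settings. Leaving out single libraries also changed the sign of several of the 10 genes. Against 48, limma called 31 genes without any scaling, 30 after rescaling to TPM and 23 when the pseudocount was 0.1. Without a filter it called 0, though 2163 genes had an unadjusted p under 0.05, and 8 when genes had to average 5 FPKM. It called 217 once genes listed at 0 were dropped, 26 if eBayes had no trend, 160 if eBayes was robust and 187 after length and GC trends were taken out. Leaving out single libraries gave 39 to 179, the highest without shPTPRN3 replicate 1. In all of these fits 0 of the 10 genes were called, with NQO1 at adjusted p from 0.0906 to 0.929 over 16 alternatives. The labels give both groups replicate numbers 1 and 2 without saying what a number shares, and the deviations of same-numbered libraries correlated across genes (r = 0.519, a hint from the data and not from the design). With the replicate block 2163 genes (19% of those tested) and 1 of the 10, NQO1 (adjusted p = 0.00227), were called.

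The median of the 10 genes ran from -0.31 to 0.64 when single libraries were left out. FTL was 0.032 on TPM, 0.053 with quantile normalization and 0.11 with trends removed. Left-out libraries gave -0.56 to 0.44 for FTL, -0.50 to 0.041 for FTH1, -0.44 to 0.027 for KEAP1, -0.38 to 0.67 for HMOX1, -0.34 to 0.72 for GCLM, -0.18 to 0.82 for TXNRD1 and -0.29 to 0.61 for SRXN1. NFE2L2, GCLC and NQO1 kept their sign in all 17 alternatives each, with 0.31 to 0.93, 0.078 to 0.73 and -1.51 to -0.94 when single libraries were left out. Quantile normalization cannot show a difference in FTH1, the top gene of every library. The cause of these differences was not tested. The files hold no counts, so depth is an estimate.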
